A study of Homo sapiens with 16 samples.

Results

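RET is the receptor tyrosine kinase of the GDNF family of neurotrophic ligands, and GFRA1, GFRA2 and GFRA3 are the lipid-anchored co-receptors that present those ligands to it. The genes described here are these 4 receptor genes together with GDNF and ARTN, which encode glial cell line-derived neurotrophic factor and artemin. They were chosen by name, with earlier results of these data known. Each of the 6 genes matched 1 entry among the 69222 genes of the count table, of which 62686 had a symbol. Of the 6, 5 passed the filter on low counts that left 18081 genes for testing, and GDNF did not.

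RNA was sequenced from SH-SY5Y, a human neuroblastoma cell line of sympathoadrenal type that extends neurites under retinoic acid, in 8 groups of 2 libraries. The groups were untreated cells on culture plates, differentiated cells on plates, and cells differentiated on a film of P(rGO), a polymer with reduced graphene oxide, of PEDOT:PSS, a conducting polymer blend, or of ITO, indium tin oxide, each without and with electrical stimulation (ES). For differentiation, serum was stepped down on days 2, 3 and 5 (to 5%, 2.5% and 1%), 10 µM retinoic acid was present from day 3 until day 6, and 50 ng/mL of the neurotrophin BDNF followed for 4 days. ES was a square wave of 0.1 V at 1 Hz for 8 h a day during the last 4 days. Per the labels, poly-L-lysine and laminin coated the films, and no coat is named for the plates, so a difference between films and plates cannot be told apart from one of coating. They do not say whether the 2 libraries of a group came from separate cultures, so each p-value measures only the spread between these libraries.

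The signalling complex forms when a dimeric ligand binds a GFRA co-receptor and the pair engages RET, whose kinase then activates adaptor proteins upstream of the MAP kinase and PI3 kinase pathways. Each co-receptor has a preferred ligand: GFRA1 binds GDNF, GFRA2 binds neurturin, and GFRA3 binds artemin. RET signalling is required for sympathetic and enteric neurons during development, and retinoic acid is long known to raise RET in neuroblastoma cells.

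Libraries held between 15600410 and 20851000 reads assigned to genes. Levels are CPM, the reads of a gene relative to the scaled size of its library, and CPM per kb of merged exon length where genes are set against each other. The label of the cells was checked against sympathoadrenal markers: 8 of 9 had counts, including DBH and HAND2, while CHGA was listed at 0 in all 16 libraries. TH of that list was low, with 634 reads over all 16 libraries against 183249 for DBH and 283975 for HAND2. The summed level of the 9 markers lay between 3233 and 5291 CPM. The Schwann cell regulator SOX10 was at 0 in every library. The cause of the 0 for CHGA was not found, so a 0 in these counts may not mean that a message was absent.

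Places are given in GRCh38, as annotated in GENCODE release 29. RET (ENSG00000165731) spans chr10:43077027-43130351 on the plus strand and GFRA1 (ENSG00000151892) spans chr10:116056925-116273467 on the minus strand. GFRA3 (ENSG00000146013) spans chr5:138252379-138274671 and GDNF (ENSG00000168621) chr5:37812677-37839686, both on the minus strand. ARTN (ENSG00000117407) spans chr1:43933320-43937241 on the plus strand, and GFRA2 carries the identifier ENSG00000168546. GDNF-AS1 runs opposite to GDNF, OR6R2P opposite to GFRA2, and RPS27AP18 lies within GFRA3 on the same strand. Whether the authors counted by strand is not stated in the labels or notes, so reads of these overlapping genes could not be separated.

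The promoters of RET and ARTN, which rose together on differentiation, and of GFRA3, which set the plates apart from the films, are printed below from RefSeq (GRCh38.p14). Each runs 5′ to 3′ on the gene's own strand from 250 bases before to 50 after an annotated start. Capitals mark GGGCGG or its reverse complement, the GC box bound by SP1-family factors. The windows are chr10:43076819-43077118 (plus strand) for RET, chr1:43933551-43933850 (plus strand) for ARTN and chr5:138274572-138274871 (minus strand) for GFRA3.
RET: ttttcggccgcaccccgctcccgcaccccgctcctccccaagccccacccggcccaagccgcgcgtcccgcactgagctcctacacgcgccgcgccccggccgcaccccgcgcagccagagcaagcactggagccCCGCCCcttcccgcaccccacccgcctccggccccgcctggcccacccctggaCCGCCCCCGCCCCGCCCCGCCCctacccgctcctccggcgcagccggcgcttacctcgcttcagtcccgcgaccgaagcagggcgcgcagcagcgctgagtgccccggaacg
ARTN: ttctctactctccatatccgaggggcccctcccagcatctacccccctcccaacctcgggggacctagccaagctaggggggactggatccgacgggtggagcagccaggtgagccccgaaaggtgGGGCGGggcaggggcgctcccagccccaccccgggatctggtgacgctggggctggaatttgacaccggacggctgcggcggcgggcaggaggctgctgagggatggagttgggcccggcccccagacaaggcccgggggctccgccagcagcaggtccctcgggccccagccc
GFRA3: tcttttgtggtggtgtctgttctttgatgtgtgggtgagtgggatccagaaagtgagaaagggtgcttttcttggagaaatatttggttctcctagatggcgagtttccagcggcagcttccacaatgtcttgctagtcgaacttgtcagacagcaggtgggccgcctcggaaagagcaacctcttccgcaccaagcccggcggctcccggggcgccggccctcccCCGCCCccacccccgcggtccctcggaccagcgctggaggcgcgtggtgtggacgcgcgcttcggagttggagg
The RET window held 5 GC boxes, of which those in the longest capital run stand side by side, and the ARTN and GFRA3 windows held 1 each. Across 35116 promoter windows of this length, 45% held at least 1 GC box. AGGTCA, the core hexamer of retinoic acid receptor elements, was searched on both strands and had no match in any of the 3 windows, against 13.8% of all windows. Its direct repeat with 5 free bases between the copies also had no match on either strand, and 0.0057% of all windows (2 of 35116) held it. A repeat this rare would be absent from almost any 3 windows. Only these exact sequences were searched, so retinoic acid receptor elements that differ from them by a base would be missed.

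RET was the most abundant of the 6 messages per kb of exon in every library. In untreated cells it stood at 704 and 652 CPM. On differentiated plates it stood at 1332 CPM in replicate 1 and 3280 CPM in replicate 2, the widest gap between 2 libraries of any group for this gene. On the films without ES the levels were 2793 and 3231 CPM on P(rGO), 2389 and 2882 CPM on PEDOT:PSS, and 2838 and 2566 CPM on ITO. Every film library thus lay above both untreated libraries. With ES the levels were 2232 and 2776 CPM on P(rGO), 2546 and 2783 CPM on PEDOT:PSS, and 2049 and 2423 CPM on ITO. In the order of group means, untreated cells were lowest at 678 ± 37.3 CPM (SD, n = 2), and the other 7 groups ran from 2236 ± 264 CPM on stimulated ITO to 3012 ± 310 CPM on unstimulated P(rGO). Between neighbours in that order the libraries overlapped everywhere except at the step up from untreated cells.

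**Figure D1:**
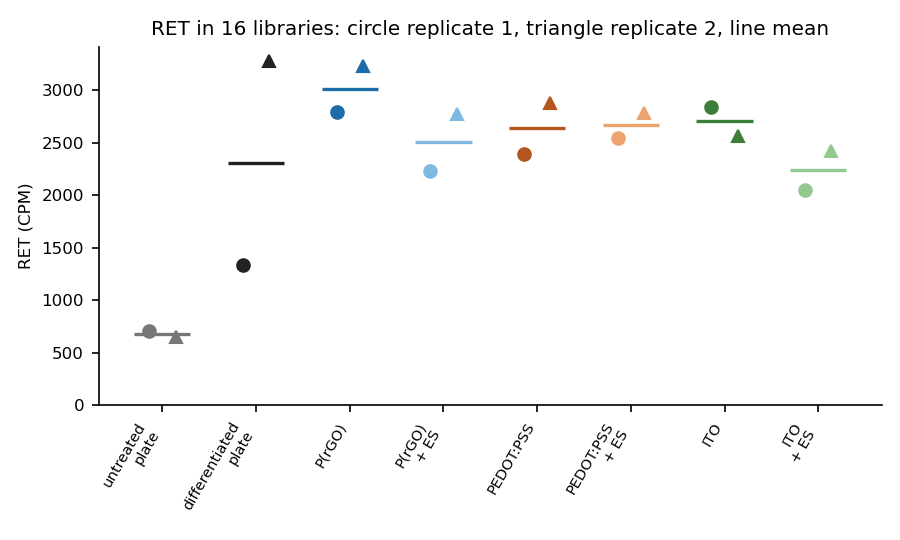
RET level in CPM (vertical axis, from 0) in each of the 16 libraries, by group along the horizontal axis. Circles are replicate 1, triangles replicate 2, and lines are means of 2. The untreated libraries at 704 and 652 CPM lie below all others, and the differentiated plate libraries at 1332 and 3280 CPM span the whole range of the films.

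Differentiation on plates was accompanied by more RET and ARTN message and less GFRA2 message. Of the 5 genes tested, 2 rose and 1 fell at an adjusted p of at most 0.05, in a comparison that called 29.6% of all genes (13.8% higher and 15.8% lower). RET rose 3.40-fold, a log2 fold change of 1.77 ± 0.30 (SE) with adjusted p = 0.0012 by edgeR's quasi-likelihood test. The size rests on which plate library is used: it was 0.97 (adjusted p = 0.012) without differentiated plate replicate 2 and 2.28 without replicate 1. Fitted on the 4 plate libraries alone, the value was 1.77 with adjusted p = 0.11.

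ARTN, the ligand gene of the GFRA3 co-receptor, stood at 1.18 and 0.545 CPM in untreated cells, and at 3.31 and 3.74 CPM on differentiated plates. The plate libraries therefore lay above both untreated ones, although each value rests on few reads (29 in the untreated group and 136 on differentiated plates). ARTN rose 4.05-fold (log2 fold change 2.02 ± 0.39, adjusted p = 0.0022). Without untreated replicate 1 the log2 fold change was 2.67, and without untreated replicate 2 it was 1.57. In the fit of the 4 plate libraries alone the adjusted p was 0.11.

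GFRA2, the neurturin co-receptor, was the member that fell. Untreated replicate 1 held 274 reads (16.2 CPM) and untreated replicate 2 held 30 reads (1.82 CPM), while the differentiated plates stood at 0.489 and 0.300 CPM. The untreated libraries were thus both above the differentiated ones but differed widely from each other. The fall was 22.7-fold in the fit (log2 fold change -4.50 ± 0.79, adjusted p = 0.0014), and the log2 fold change was -2.21 without untreated replicate 1. Without untreated replicate 2 it was -5.35. In the fit of the 4 plate libraries alone the adjusted p was 0.085.

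GFRA1, the GDNF co-receptor, and GFRA3 did not pass the test on differentiation in the main fit. Both split by replicate number, and with that number as a further term in the model both were called, with values in the closing sections. GFRA1 stood at 2.84 and 3.39 CPM in untreated cells and at 4.13 and 10.4 CPM on differentiated plates (log2 fold change 1.23 ± 0.72, adjusted p = 0.21). GFRA3 stood at 34.6 and 11.9 CPM in untreated cells and at 65.6 and 38.5 CPM on differentiated plates (1.16 ± 0.48, adjusted p = 0.080). Without untreated replicate 1, the value for GFRA3 was 2.11, in a fit whose untreated arm holds replicate 2 alone. For both genes the plate libraries lay above the untreated ones, by more for GFRA1 replicate 2 than for replicate 1.

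Markers of other cell types moved between the same groups. The summed level of 7 markers of mesenchymal neuroblastoma cells, among them VIM and CD44, was 540 to 559 CPM in untreated cells, 44.4 to 50.1 CPM on differentiated plates and 46.4 to 121 CPM on films. PRRX1 of that list had 1 read over all 16 libraries. The sum of 7 fibroblast markers was 313 to 348 CPM in untreated cells and 186 to 248 CPM in all other groups, and that of 6 Schwann cell markers was 36.2 to 36.3 CPM against 13.4 to 19.3 CPM. Their part in the changes of RET, ARTN and GFRA2 was not tested. In RNA from whole cultures, fewer cells that make a message and less message per cell cannot be told apart.

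**Figure D2:**
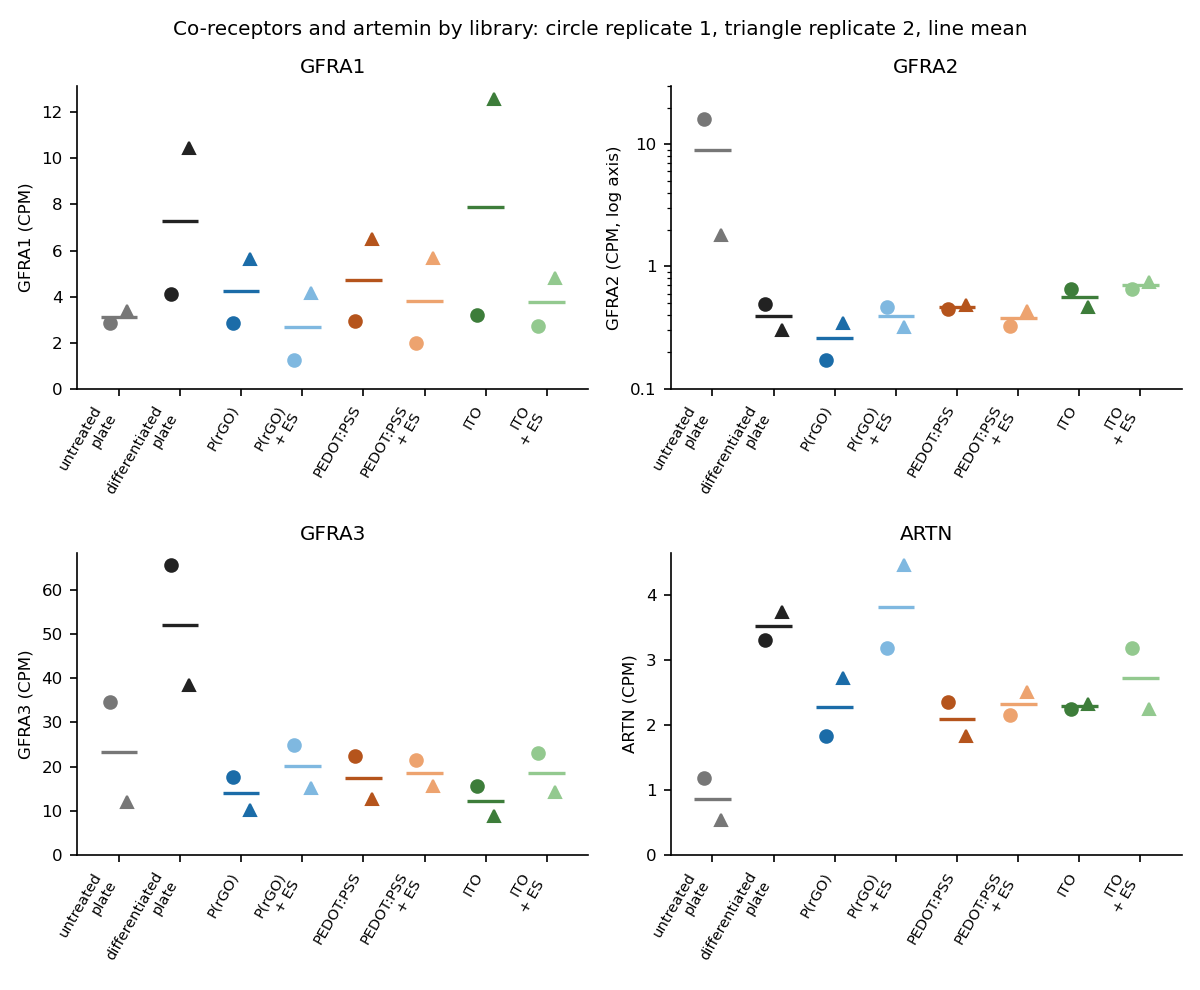
Levels of GFRA1, GFRA2, GFRA3 and ARTN in CPM in each library, 1 panel per gene, with the groups along the horizontal axis and a log axis for GFRA2 only. Circles are replicate 1, triangles replicate 2 and lines the means of 2. GFRA3 is highest on differentiated plates at 65.6 and 38.5 CPM, and GFRA2 is highest in untreated cells at 16.2 and 1.82 CPM.

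All 6 film groups together had more RET and ARTN message and less GFRA2 message than untreated cells. This comparison called 47.9% of all genes (21.9% higher, 26.0% lower), and 2 members rose and 1 fell. RET rose 3.86-fold (log2 fold change 1.95 ± 0.27, adjusted p = 4.95e-05) and ARTN 2.91-fold (1.54 ± 0.33, adjusted p = 0.0016). GFRA2 fell 20.2-fold (-4.34 ± 0.43, adjusted p = 3.7e-06), and its value was -2.04 without untreated replicate 1 and -5.18 without untreated replicate 2. GFRA1 (0.46 ± 0.58, adjusted p = 0.54) and GFRA3 (-0.49 ± 0.35, adjusted p = 0.27) did not pass. The comparison with untreated cells shares its untreated libraries with that on plates, so the 2 sets of values are not independent.

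GFRA3, the artemin co-receptor, was lower on films than on differentiated plates. Without ES it stood at 17.7 and 10.1 CPM on P(rGO), 22.3 and 12.6 CPM on PEDOT:PSS, and 15.6 and 8.85 CPM on ITO. With ES it stood at 24.9 and 15.2 CPM on P(rGO), 21.5 and 15.6 CPM on PEDOT:PSS, and 23.0 and 14.3 CPM on ITO. The lower plate library, at 38.5 CPM, lay above the highest film library, at 24.9 CPM. The plates were the only group whose libraries did not overlap with their neighbour in the order of GFRA3 means. Other measures also differed between the films and the plates. The summed sympathoadrenal markers were 3233 to 4103 CPM on films and 4516 to 4534 CPM on plates. Of the 8 tested, 3 were called lower for ITO and for the mean of the films, 1 for P(rGO) and 0 for PEDOT:PSS. Of the 6 mesenchymal markers tested, 2 were called higher for ITO, 1 each for P(rGO) and the mean, and 0 for PEDOT:PSS. Of the 6 fibroblast markers tested, 2 were called higher and 1 lower for ITO and for the mean of the films. For P(rGO) and for PEDOT:PSS 1 was called each way. The fibroblast sum was 186 to 241 CPM on films and 213 to 248 CPM on plates. Of all genes, 2.50% were called higher and 1.73% lower for ITO, and 4.05% and 3.73% for the mean of the films. For P(rGO) these shares were 2.99% and 1.64%, and for PEDOT:PSS 1.02% and 0.454%. Ribosomal protein reads made up 2.94% to 3.73% of the film libraries and 5.74% and 4.27% of the plate libraries. The part of these measures in the GFRA3 difference was not tested.

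Tested against plates, the P(rGO) film without ES called 4.63% of all genes (2.99% higher, 1.64% lower), and GFRA3 was the 1 member among them, 3.73-fold lower (log2 fold change -1.90 ± 0.49, adjusted p = 0.041). The ITO film called 4.23% of all genes (1.73% lower) and again GFRA3 alone of the members, 4.26-fold lower (-2.09 ± 0.49, adjusted p = 0.030). The PEDOT:PSS film called 1.48% of all genes (0.454% lower) and none of the 5 members, with GFRA3 at -1.58 ± 0.48 and adjusted p = 0.14. With the replicate number as a further term in the model, GFRA3 was called for this film too. The mean of the 6 film groups called 7.78% of all genes, 3.73% lower, with GFRA3 the 1 member called, at -1.65 ± 0.32 and adjusted p = 0.0065. The 4 comparisons share the plate libraries.

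The calls of GFRA3 rest on few libraries. Without differentiated plate replicate 1 the log2 fold change was -1.47 (adjusted p = 0.34) for P(rGO), -1.66 (0.28) for ITO and -1.22 (0.31) for the mean of the films. Leaving out either film library also ended the call for P(rGO), at -2.36 (adjusted p = 0.13) without its replicate 1 and -1.55 (0.29) without its replicate 2. The same held for ITO, at -2.56 (adjusted p = 0.080) and -1.74 (0.27). Each such fit leaves an arm of 1 library, which is assumed to vary like the other groups. That arm holds a single replicate number while the other groups hold both. GFRA3 was lower in replicate 2 in every group, so these shifts cannot be told apart from the split by replicate number.

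RET on films could not be placed above or below RET on plates. The log2 fold change was 0.39 (95% interval -0.25 to 1.02) for P(rGO), 0.19 (-0.44 to 0.83) for PEDOT:PSS, 0.23 (-0.41 to 0.86) for ITO and 0.18 (-0.31 to 0.67) for the mean of the films, with adjusted p from 0.52 to 0.85. The outcome turned on the plate library used. Without differentiated plate replicate 2 the values were 1.18, 1.00, 1.04 and 0.99. Without differentiated plate replicate 1 they were -0.12, -0.32, -0.28 and -0.33. Each such fit leaves a plate arm of 1 library, so the gap between the plate libraries does not enter its spread. Among replicate 1 libraries every film was above the plate at 1332 CPM, and among replicate 2 libraries every film was below the plate at 3280 CPM. Plate replicate 1 also had a larger share of mitochondrial reads (8.58% against 5.42%) and of ribosomal protein reads (5.74% against 4.27%) than plate replicate 2, and their part in this gap was not tested.

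The remaining members showed no called difference between films and plates. ARTN on unstimulated films stood at 1.83 and 2.72 CPM on P(rGO), 2.36 and 1.84 CPM on PEDOT:PSS, and 2.25 and 2.33 CPM on ITO, all below the plates at 3.31 and 3.74 CPM. The mean of the 6 film groups differed from plates by -0.48 ± 0.25 for ARTN (adjusted p = 0.29), -0.77 ± 0.50 for GFRA1 (0.40) and 0.16 ± 0.74 for GFRA2 (0.93). Outside the untreated group GFRA2 lay between 0.172 and 0.752 CPM in every library, so its differences among films were not detectable at this depth.

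**Figure D3:**
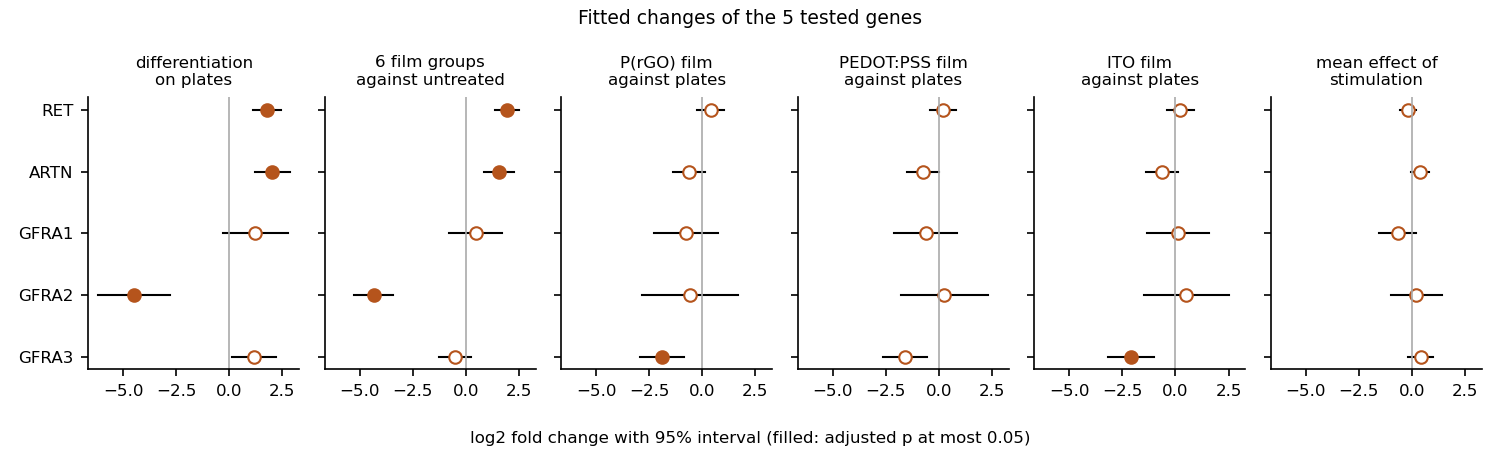
Log2 fold change (horizontal axis) of RET, GFRA1, GFRA2, GFRA3 and ARTN in the main comparisons, with bars for the 95% interval and filled points for an adjusted p of at most 0.05 by edgeR. RET and ARTN lie to the right and GFRA2 to the left for both comparisons with untreated cells, and GFRA3 lies to the left for each film against plates, called for P(rGO) at -1.90 and ITO at -2.09.

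Electrical stimulation was not accompanied by a called change in any member. No gene of the 18081 was called by edgeR for stimulation on P(rGO), PEDOT:PSS or ITO, or for its mean effect (0% in each), with 986, 126, 293 and 1021 genes at an unadjusted p under 0.05. DESeq2 called 14, 0, 0 and 9 genes, none of them a member. The mean effect on the log2 scale was -0.17 for RET (95% interval -0.54 to 0.19), -0.68 for GFRA1 (-1.57 to 0.21), 0.21 for GFRA2 (-0.98 to 1.40), 0.41 for GFRA3 (-0.19 to 1.01) and 0.38 for ARTN (-0.05 to 0.82). The intervals of all 5 genes include 0, and that of GFRA1 is among the widest.

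ARTN on P(rGO) was 1.83 and 2.72 CPM without ES and 3.19 and 4.46 CPM with it, so the libraries did not overlap (log2 fold change 0.75 ± 0.35, adjusted p = 0.91). On PEDOT:PSS with ES it was 2.16 and 2.51 CPM, and on ITO with ES 3.19 and 2.26 CPM. RET on P(rGO) (-0.27 ± 0.30, adjusted p = 0.97) and on ITO (-0.27 ± 0.30, adjusted p = 1) had both stimulated libraries below both unstimulated ones, and on PEDOT:PSS they overlapped. GFRA3 overlapped between stimulated and unstimulated libraries on all 3 films, in a gene that split by replicate number. Matched by that number, GFRA3 was higher with ES in both libraries on P(rGO) and on ITO. On PEDOT:PSS it was 15.6 against 12.6 CPM in replicate 2 and 21.5 against 22.3 CPM in replicate 1. GFRA1, matched likewise, was lower with ES in both libraries on all 3 films. Adding the replicate number to the model called neither gene for ES. Tests of a difference in the effect of ES between films, of a difference between unstimulated films and of a difference between stimulated films called no gene by edgeR, with 133, 239 and 463 genes at an unadjusted p under 0.05, and by DESeq2 0, 1 and 8.

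GFRA1 was low and split by replicate number. Its levels without ES were 2.86 and 5.61 CPM on P(rGO), 2.94 and 6.49 CPM on PEDOT:PSS, and 3.20 and 12.6 CPM on ITO. With ES they were 1.25 and 4.15 CPM on P(rGO), 1.99 and 5.66 CPM on PEDOT:PSS, and 2.72 and 4.79 CPM on ITO. Replicate 2 was above replicate 1 in 8 of 8 groups, by 1.19-fold in untreated cells and up to 3.94-fold on ITO without ES, and 1.90% of all genes tested were above in all groups. All neighbours in the order of GFRA1 group means overlapped. GFRA3 ran the other way, with replicate 2 below replicate 1 in 8 of 8 groups, a pattern that 1.30% of genes had. RET was higher in replicate 2 in 6 of 8 groups. A model with the groups and the replicate number as terms, chosen after the data were seen, called 15 genes, 0.0830% of those tested (0.0608% higher and 0.0221% lower in replicate 2). GFRA1 was among the higher ones, at 1.22 ± 0.18 on the log2 scale (adjusted p = 0.027, 2.33-fold), and GFRA3 among the lower ones, at -0.82 ± 0.10 (adjusted p = 0.010). RET (0.27 ± 0.14, adjusted p = 0.51) was not called. The labels give every replicate 1 one prefix and every replicate 2 another, without saying what they stand for.

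**Figure D4:**
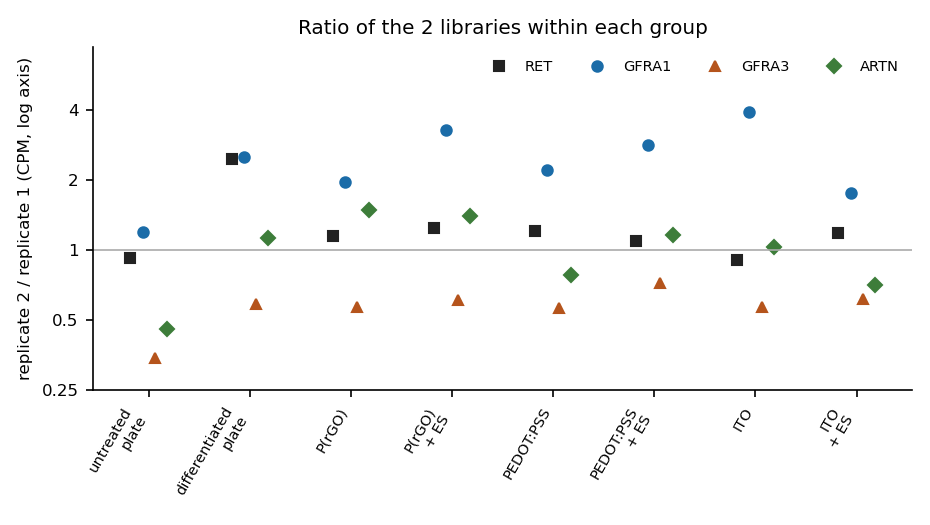
Ratio of replicate 2 to replicate 1 in CPM (vertical axis, log scale, 1 marked by a line) for RET, GFRA1, GFRA3 and ARTN in each of the 8 groups along the horizontal axis. GFRA1 lies above 1 and GFRA3 below 1 in all 8 groups, with GFRA1 highest on unstimulated ITO at 3.94.

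Per kb of exon, the receptor outnumbered its co-receptors at the level of message in every library. The film median was 387 CPM per kb for RET, 7.64 for GFRA3, 0.882 for ARTN, 0.379 for GFRA1 and 0.0798 for GFRA2. The ratio of RET to the sum of GFRA1, GFRA2 and GFRA3 was 5.07 and 14.5 in untreated cells, 5.90 and 23.7 on differentiated plates, and 25.4 to 83.4 on films with a median of 47.2. Film libraries thus all lay above the plate libraries in this ratio, but by little for the lowest film and the higher plate library. Within replicate 1 the films ran from 25.4 to 50.8 and within replicate 2 from 45.9 to 83.4.

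GFRA3 made up most of the co-receptor message throughout. Its share of the GFRA sum per kb was 84.4% and 89.7% in untreated cells, 98.4% and 94.4% on differentiated plates and 75.9% to 98.3% on films. GFRA2 made up 14.1% and 4.88% of that sum in untreated cells, 0.26% in both libraries of the differentiated plates and 0.33% to 1.72% on films. GFRA1 reached its highest share, 22.7%, in ITO replicate 2 without ES.

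GDNF, the founding ligand of the family, was close to absent from these libraries. It had 3 reads in all: 1 in untreated replicate 1, 1 in differentiated plate replicate 2 and 1 in stimulated PEDOT:PSS replicate 1. The other 13 libraries held none. A floor of 3 reads over the 2 libraries of a group corresponds to 0.0704 to 0.0897 CPM, so levels below that were not detectable at this depth. GDNF-AS1 overlaps GDNF over 27010 bases on the opposite strand. Whether reads were counted by strand is not stated, so any part of that overlap in the low GDNF count is unknown. No test or fold change is given for GDNF.

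The other ligands and receptors of the family were read from the same fit. NRTN, the neurturin gene, ran from 6.63 to 15.0 CPM over the group means and PSPN, the persephin gene, from 5.58 to 8.40 CPM. Neither was called in the comparisons with plates or with untreated cells. GDF15, a stress-induced ligand that uses RET through GFRAL, stood at 216 to 1014 CPM on films, 22.2 and 63.6 CPM on differentiated plates and 17.6 and 236 CPM in untreated cells. The film libraries lay above the plates, and the difference missed the threshold (3.26 ± 0.96, adjusted p = 0.064). That call depended on the setting: the adjusted p was 0.0014 by DESeq2, 0.023 without the untreated libraries, 0.047 and 0.025 without stimulated P(rGO) replicates 1 and 2, and 0.52 without differentiated plate replicate 1. GFRA4 and GFRAL, the co-receptors for PSPN and GDF15, were listed at 0 reads in all libraries. NCAM1, an alternative receptor for GDNF with GFRA1, had group means of 594 to 694 CPM and was not called.

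Among 43 further genes of the pathway, 33 were tested, and on differentiation 5 rose, 6 fell and 22 did not pass. Their median log2 fold change was 0.07, against -0.01 for all genes, and the share called was 11 of 33, beside 29.6% of all genes. That count was 7 and 6 without differentiated plate replicates 1 and 2, and 2 in the fit of the 4 plate libraries alone. RARB, a retinoic acid receptor and a direct target of retinoic acid, rose by 1.99 ± 0.21 (adjusted p = 5.42e-05), from 20.9 ± 4.65 to 83.0 ± 20.6 CPM (SD, n = 2). GATA3, a transcription factor of the sympathoadrenal lineage, had a log2 fold change of -0.82 ± 0.15 (adjusted p = 0.0020), a fall. Among adaptors, which carry the signal from phosphorylated RET, 2 of 16 tested rose, SOS1 (0.42) and PIK3CA (0.42), and 3 fell, of which DOK4 had the largest change (-1.28 ± 0.17, adjusted p = 0.00030). SOS1 and PIK3CA lost the call under several alternatives, at adjusted p of 0.20 and 0.13 without untreated replicates 2 and 1 respectively.

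Of the regulators that attenuate RET, LRIG1, which binds and inhibits it, rose on differentiation and was lower on each film. It stood at 2.96 and 3.09 CPM in untreated cells, and at 8.14 and 6.69 CPM on differentiated plates. On unstimulated films it stood at 3.15 and 2.08 CPM on P(rGO), 2.11 and 3.08 CPM on PEDOT:PSS, and 1.78 and 1.22 CPM on ITO, all below both plate libraries. The rise was 1.29 ± 0.33 (adjusted p = 0.011). The film differences were -1.50 (adjusted p = 0.021) for P(rGO), -1.51 (0.040) for PEDOT:PSS, -2.30 (0.0026) for ITO and -1.58 (0.00079) for the mean of the films. Without differentiated plate replicate 1 the adjusted p was 0.19, 0.32 and 0.053 for P(rGO), PEDOT:PSS and the mean, and 0.051 for the rise. Without ITO replicate 2 it was 0.052 for ITO, and the P(rGO) and PEDOT:PSS calls were lost without either of their own film libraries. CBLB, a ubiquitin ligase, rose by 0.59 on differentiation and CD2AP, an endocytic adaptor, fell by 0.72. Both calls were lost without differentiated plate replicate 2, at adjusted p of 0.31 and 0.053.

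On films against plates, LRIG1 was the 1 pathway gene of 33 called for P(rGO) and for PEDOT:PSS, and it was among 2 called, both lower, for ITO and for the mean of the films. Without differentiated plate replicate 1 the counts were 0 for P(rGO), 0 for PEDOT:PSS, 1 for ITO and 0 for the mean, and without its replicate 2 they were 3, 0, 1 and 1. Leaving out a film library gave 0 for P(rGO) and PEDOT:PSS, and 1 and 0 for ITO without its replicates 1 and 2. Films against untreated cells called 6 pathway genes higher and 9 lower of 33, beside 47.9% of all genes. RARB (2.18) and CBLB (0.85) were the largest rises in their lists, and GATA3 (-1.08), DOK4 (-1.48) and CD2AP (-0.61) were among the falls. Where differentiated plate replicate 1 was left out, the calls over all genes on films against plates fell as well, as given in the closing sections. No pathway gene was called for stimulation.

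The genes whose levels ran most like those of RET over the 16 libraries were ERC1 and MAGED2 (Pearson r of log2 CPM 0.98 each), CRABP2, which carries retinoic acid to its receptors (0.98), POU2AF2 (0.98) and DLG2 (0.98). CRABP2 had 176 CPM in untreated cells, 1218 CPM on differentiated plates and 1005 to 1565 CPM over the film groups. For GFRA3 the most alike were AMH (0.96), PNMA3 (0.87) and UBXN11 (0.87), and AMH had 96.1 CPM in untreated cells, 145 CPM on differentiated plates and 59.9 to 113 CPM over the film groups. ARTN ran most like ZSCAN26 (0.96), SAP30L (0.95) and CLHC1 (0.94), GFRA2 like LRRN3, MIS18A and HSPD1 (0.95 each), and GFRA1 like H2BC5 (0.87), DGKI (0.86) and ZFP37 (0.83). The untreated libraries lie apart from the rest and share their difference across many genes, so these values are descriptions. Between members, r over the 16 libraries was -0.81 for RET with GFRA2, 0.70 for RET with ARTN and -0.28 for RET with GFRA3.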

How the data were processed

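Per the labels' protocols, the libraries were poly(A)-selected and strand-specific. The deposited values are raw counts of reads per gene, 1 column per library, made with STAR and HTSeq on GRCh38.p13/hg38 per the submitters' processing notes, with no versions given. The 5 summary entries without a gene were left out.

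In R 4.3.3, edgeR 4.0.16 kept 18081 genes (default expression filter), scaled libraries by the trimmed mean of M values and fitted 1 mean per group over all 16 libraries with robust quasi-likelihood (8 residual degrees of freedom). Genes with an adjusted p (Benjamini-Hochberg, over all genes tested) of at most 0.05 were called. Standard errors are the log2 fold change over the root of F. Exon lengths came from GENCODE release 29, which may differ from the release counted.

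Named genes were the 6 members, the called pathway gene with the largest change per direction and list (up to 3), further ligands and receptors, and the genes most correlated with each member (prior count 2, at least 5 CPM in 1 group). The values of 1 pathway gene are not reported here. The members and lists were chosen with earlier results of these data known.

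Alternatives were other scalings, no filter, a replicate block, fewer groups, DESeq2 1.42.0 and leaving out each library. Models were tested on simulated data. Precision is limited by 2 libraries per group, and floors of 3 counts cover counting error only.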

Additional observations from a re-analysis of the deposited data

Results flagged for a closer look

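GFRA2 levels with electrical stimulation lay on opposite sides of those without it on 2 films, and neither difference passed the test. Both stimulated ITO libraries (0.657 and 0.752 CPM) lay above both unstimulated ones (0.651 and 0.466 CPM), and both stimulated PEDOT:PSS libraries (0.323 and 0.436 CPM) lay below both unstimulated ones (0.447 and 0.487 CPM). The test of a difference in the effect of stimulation between films gave an adjusted p of 1 by edgeR. These levels rest on 14 to 30 reads per group, so a difference of this size was not detectable at this depth.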

How the results depend on the processing

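No member was called for stimulation or between films under any alternative run. RET, ARTN and GFRA2 kept their direction and their call against untreated cells under all alternatives but 1: in a fit of only the 4 plate libraries, differentiation gave RET 1.77 (adjusted p = 0.11), ARTN 2.02 (0.11) and GFRA2 -4.49 (0.085), with 0 members called. Without the low-count filter 5 members were called for differentiation, 1 for PEDOT:PSS and 2 for the mean of the films against plates. For both film comparisons the calls over all genes also rose in that fit, as given below. The estimated spread of a gene can be far smaller there. For the mean of the films against plates, GDF15 had a standard error of 0.16 without the filter, against 0.96 in the main fit.

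Leaving out each library in turn, GFRA3 ranged from -2.36 to -1.47 for P(rGO), -2.56 to -1.66 for ITO and -1.97 to -1.22 for the mean of the films. Each such fit leaves 1 library in a group. The calls over all genes moved in these fits as well, as given below, so members called are not counted for them. PSPN on films against untreated cells ranged from -0.57 to 0.97, reversed to -0.57 (adjusted p = 0.044) when untreated replicate 1 was left out and called at 0.97 (adjusted p = 0.012) when untreated replicate 2 was. Without untreated replicate 2 it was also called for differentiation, at 1.17 (adjusted p = 0.014). The cause was not tested. Alternatives on pathway genes were chosen after the data were seen.

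Same-numbered libraries deviated together in 16 of 28 pairs of groups (r over 0.1, from -0.19 to 0.29). Between film groups every r was positive, from 0.066 to 0.29, and each negative r involved a plate group. The main fit did not pair libraries by number, although 14 of 16 libraries correlated best with their own number. It therefore leaves any deviation shared by number in the spread. With the replicate block 5 members were called for differentiation (GFRA1 1.06, adjusted p = 0.038, and GFRA3 1.25, 0.0012) and 1 for PEDOT:PSS (GFRA3 -1.58, 0.0029), and GDF15 passed for the mean of the films against plates (0.047). Calls over all genes moved from 5353 to 5492 for differentiation under the block.

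Counts over all genes moved by more than 1.5 times in these cases. For differentiation 5353 became 320 in the fit of the plates alone, 1767 when differentiated plate replicate 2 was dropped and 8050 when untreated replicate 1 was. For P(rGO) 838 became 1625 with no filter, 2183 without the untreated libraries, 1451 by DESeq2 and 100 without differentiated plate replicate 1. For PEDOT:PSS 267 became 872, 954, 664 and 19 in the same order, and for ITO 764 became 1430, 1722, 1208 and 132. For the mean of the films against plates 1406 became 2176, 2889, 1894 and 146. Stimulation reached 168 calls on P(rGO) and 137 for the mean effect without the filter.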

Other observations

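NRTN, singled out after its values were seen, stood higher with stimulation than without on each film by group mean: 15.0 against 9.90 CPM on P(rGO), 11.9 against 9.54 CPM on PEDOT:PSS and 9.09 against 6.63 CPM on ITO. The mean effect was 0.46 ± 0.15 on the log2 scale, with an adjusted p of 0.82 by edgeR.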
